A study of Homo sapiens with 8 samples.

Results

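The broad H3K4me3 regions described here are stretches of chromatin called as marked by trimethylation of lysine 4 on histone H3. The cells were MM1S, an established human multiple myeloma cell line. On average over the DMSO libraries, though not in each library, these regions were called over at least 2000 bp. They were chosen in 3 steps. The called regions of 8 ChIP-seq libraries on chromosomes 1 to 22 and X were merged wherever they overlapped by at least 1 bp, merged regions with a call in all 8 libraries were kept, and among these the regions with a mean of at least 2000 called bases over the 5 DMSO libraries were taken. Of 50523 merged regions, 13729 were called in all 8 libraries, and 1185 of these were broad, which is 8.63% of the shared regions and 2.35% of all merged regions. The other 12544 shared regions serve as the comparison. The choice used the called widths of the DMSO libraries, so width in DMSO is given as a description.

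All libraries were made from the same cell line with the same antibody against H3K4me3. The controls were 5 libraries from cells given the DMSO vehicle (DMSO 1 to DMSO 5), and the treatment applied to the other 3 was KDM5-C70 at 50 uM over 7 days (KDM5-C70 1 to KDM5-C70 3). The labels do not say whether the libraries of a group came from separate cultures, so the spread between them may be technical. A single cell line cannot show how the regions behave in other myeloma cells. Genes are not named, and the cell line was not checked against marker genes, because no annotation of GRCh37, the build of the files, was used. Regions are given by their GRCh37 positions, counted from 1.

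H3K4me3 is deposited by COMPASS-family methyltransferases and sits mainly on the nucleosomes that follow active transcription starts. Enzymes of the KDM5 family (KDM5A to KDM5D) remove the methyl groups, and KDM5-C70 is a cell-permeable ester inhibitor of these demethylases. At most active promoters the mark covers a few nucleosomes. At a minority it extends well into the gene, and such broad domains are known for marking genes that define the identity of a cell type, as well as for elongation and steady transcription of those genes. Whether the regions described here are domains of that kind was not tested, as no genes were matched. By DMSO mean, 902 of the 1185 regions were 2000 to 2500 bp wide, and only 64 reached 3000 bp.

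Each list gives regions at 2 levels. The outer level is the called region, and the inner level holds segments inside it, which in this list format are the parts called at a stricter level. The called width of a region is the number of bases called in a library, and its inner share is the percentage of these bases that lie in inner segments. Within a merged region a library may have more than 1 called piece, and such a region is termed split here.

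Libraries differed from each other in list length and in overlap, in ways that did not follow treatment. Between 15323 and 37948 regions were called per library, covering 12.9 to 36.7 Mb. By the overlap of their whole lists, DMSO 1, DMSO 2 and KDM5-C70 1 formed a set of 3 libraries with short lists, and DMSO 3, DMSO 4, DMSO 5, KDM5-C70 2 and KDM5-C70 3 formed a set of 5. The Jaccard index, the bases called in both of a pair over those called in either, was 0.666 to 0.677 inside the set of 3, 0.560 to 0.734 inside the set of 5 and 0.309 to 0.543 between them. No label names these sets. KDM5-C70 1 is the only treated library in its set, and values within sets are given beside the pooled ones. The median fold enrichment of the regions, as deposited by the authors, did follow treatment. It was 2.83 to 3.10 in the DMSO lists and 2.39 to 2.67 in the KDM5-C70 lists, without overlap.

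The mean called width over the DMSO libraries ran from 2000 to 3964 bp among the broad regions, with a median of 2255 bp. Their mean over the KDM5-C70 libraries ran from 693 to 3845 bp with a median of 2294 bp. In 919 regions (77.6%) the KDM5-C70 mean was also at least 2000 bp, and in 266 it was lower. Only 148 of the 1185 regions reached 2000 bp in all 8 libraries, 248 did so in all 5 DMSO libraries and 338 in all 3 KDM5-C70 libraries. The single library decided much of this: 621, 275, 1177, 1136 and 1159 of the regions were at least 2000 bp wide in DMSO 1 to DMSO 5, and 394, 1043 and 953 in KDM5-C70 1 to 3. In both groups the libraries of the set of 3 had the fewest.

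The limit of 2000 bp cuts through a continuous range. Just inside it were chr2:206949144-206952132 and chr22:38070444-38073676, each with a DMSO mean of exactly 2000 bp, and chr19:14200369-14203151 with 2000.2 bp. Just outside were chr17:55161915-55164155, with a DMSO mean of 1999 bp, and chr16:1662413-1665334 and chr18:9913265-9916970, also with 1999 bp. Their KDM5-C70 means were 2150 ± 804, 2335 ± 513 and 2547 ± 312 bp inside and 1951 ± 291, 1929 ± 259 and 2282 ± 1089 bp outside (SD, n = 3).

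The median called width of the broad regions overlapped between the groups, and so did that of the other shared regions (794 to 1420 bp in DMSO and 922 to 1520 bp with KDM5-C70). The median width of the broad regions was 2025, 1733, 2650, 2477 and 2515 bp in DMSO 1 to 5 and 1792, 2586 and 2545 bp in KDM5-C70 1 to 3. The means were 2280 ± 386 bp (SD, n = 5) and 2308 ± 447 bp (SD, n = 3). The median log2 change of called width, KDM5-C70 minus DMSO, was 0.01 over the broad regions, against 0.15 over the other shared regions and 0.14 over all 13729. Within the set of 3 the median log2 width differed by -0.06 between KDM5-C70 1 and the mean of DMSO 1 and 2, and within the set of 5 by 0.01. For the other shared regions these differences were 0.05 and 0.15. Leaving out KDM5-C70 1 took the median change of the broad regions to 0.18, and leaving out KDM5-C70 2 took it to -0.08.

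Because the regions were picked for being wide in DMSO, part of this gap is built into the choice. What the choice used was therefore changed, to show how the value moves with it. Each of these choices brings a selection of its own, so the size of that part was not measured. When the regions were chosen on the KDM5-C70 mean instead, 1919 regions met the limit, 1000 of them not in the DMSO choice, and their median log2 change was 0.18. Choosing on the mean over all 8 libraries gave 1361 regions and a change of 0.08. Choosing on 4 DMSO libraries and comparing with the DMSO library left out, in all 5 ways, gave 907 to 1669 regions and a mean change of 0.02. That mean joins comparisons of opposite sign: KDM5-C70 1 to 3 differed by 0.06, 0.66 and 0.63 from DMSO 2 when it was left out, and by -0.53, -0.03 and -0.06 from DMSO 3.

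The same question was put to each library alone. The width excess is the log2 median width of the broad regions minus that of all shared regions in the same library, with the regions chosen without the library in question. It was 0.88, 0.92, 0.87, 0.88 and 0.88 in DMSO 1 to 5 and 0.89, 0.74 and 0.68 in KDM5-C70 1 to 3. KDM5-C70 2 and 3 lay below all 5 DMSO libraries, and KDM5-C70 1 lay among them, so the groups overlapped (0.89 ± 0.02, SD, n = 5, against 0.77 ± 0.10, SD, n = 3). A choice made from DMSO libraries still favours features shared by all DMSO libraries, so the difference of -0.12 is a description of these libraries.

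**Figure D1:**
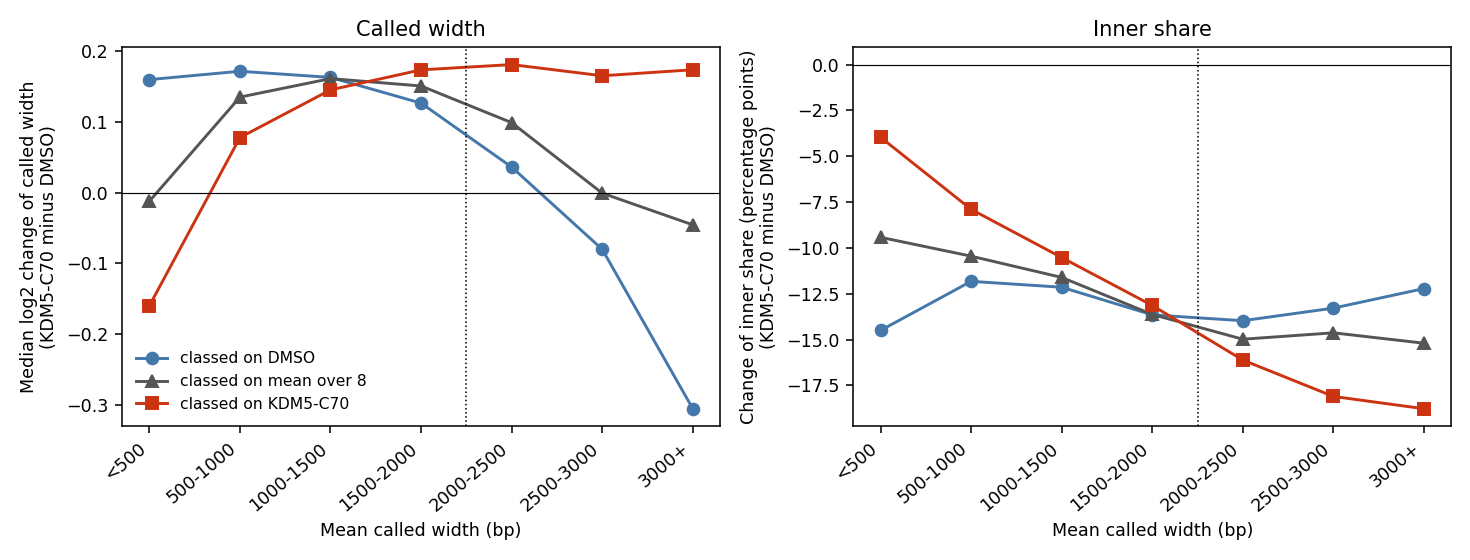
Median log2 change of called width (left) and change of inner share in percentage points (right), KDM5-C70 minus DMSO, for the 13729 shared regions in classes of mean called width in bp. Each line classes the regions on another mean; the dotted line marks 2000 bp. In the widest class the width change was -0.31 when classed on DMSO, -0.05 on the mean over 8 and 0.17 on KDM5-C70, while the inner share was lower with KDM5-C70 in every class on every line.

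The plot of change by width class shows how far the choice sets the answer for width. Among the broad regions classed on DMSO, the median log2 change was 0.04 for 902 regions of 2000 to 2500 bp, -0.08 for 219 regions of 2500 to 3000 bp and -0.31 for 64 regions of at least 3000 bp. Classed on the KDM5-C70 mean, the same 3 classes gave 0.18, 0.16 and 0.17. The direction of the width change in the widest regions therefore turned with the libraries used to pick them.

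No broad region passed the test for a change of called width. In limma, fitted to log2 called width of all 13729 shared regions with Benjamini-Hochberg adjustment at 0.05, 0 broad regions were called wider and 0 narrower, as in the whole table (0% and 0%), and the lowest adjusted p was 0.668. Before adjustment, 2 broad regions (0.169%) were wider and 66 (5.57%) narrower at p under 0.05, against 0.954% and 0.809% of the whole table. With a term for the set of libraries, 0 were called in either direction (0% and 0% of the table), with 59 (4.98%) wider and 163 (13.8%) narrower at the unadjusted level, against 12.8% and 3.25% of the table. With that term, and with libraries also centred on their medians, limma called 12 broad regions narrower, against 0.16% of the table, and 0 wider, against 0.0364%. All 3 KDM5-C70 values lay below all 5 DMSO values in 35 broad regions (2.95%), against 0.605% of the table, and above in 5, against 0.954%. Within both sets, 127 broad regions were narrower without overlap, against 3% of the table, and 96 were wider, against 15.3%. The choice favours the narrower side, so nothing is read from these shares.

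The broad region at chr2:43451304-43454922 was among the 5 with the smallest p on the narrower side. Its called width was 3470, 3057, 3491, 3516 and 3555 bp in DMSO 1 to 5 and 2115, 1989 and 1631 bp in KDM5-C70 1 to 3. The groups stood well apart, with a log2 change of -0.84 (SE 0.14) and a limma adjusted p of 0.668. With a term for the set the limma adjusted p was 0.120, and with centring as well it was 0.0352. Its right end lay between 43454609 and 43454922 in all 8 libraries, and part of the uncalled bases lay inside: each DMSO library had 1 called piece there and each KDM5-C70 library had 2. chr14:100704154-100707164 had a similar form, with 2538, 2515, 2947, 2676 and 2941 bp in 1 piece in the DMSO libraries and 1141, 1696 and 1471 bp in 2 or 3 pieces with KDM5-C70. Its limma adjusted p was 0.668, or 0.0920 with a term for the set and 0.0262 with centring as well.

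The other 3 on the narrower side were chr16:79631402-79635998 (2680 ± 697 bp, n = 5, against 880 ± 192 bp, n = 3, SD), chr5:88176066-88180395 (2386 ± 685 against 703 ± 396 bp) and chr12:104322987-104325765 (2163 ± 495 against 984 ± 54.2 bp). Their limma adjusted p was 0.668, 0.668 and 0.967. With a term for the set it was 0.120 for each, and with centring as well 0.0352, 0.0836 and 0.0352. The choice on DMSO width favours such narrower calls. On the wider side, chr1:161144816-161147939 had 2028, 1590, 2531, 2023 and 2346 bp in DMSO and 2684, 2705 and 3094 bp with KDM5-C70, a log2 change of 0.44 (SE 0.18) with a limma adjusted p of 0.994. All 3 treated values were above all 5 DMSO values. The remaining wider regions without overlap were chr19:1940279-1944178, chr17:7758794-7762280, chr2:43036362-43039398 and chr9:38619825-38622702, with log2 changes of 0.23 to 0.33 and the same adjusted p. For these wider regions the limma adjusted p was 0.221 to 0.291 with a term for the set, and 0.242 to 0.659 with centring as well.

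The inner share was lower with KDM5-C70 in the broad regions, and there was no overlap between the groups. Over the 1185 regions, 67.5, 62.0, 75.5, 70.4 and 73.4% of called bases lay in inner segments in DMSO 1 to 5, and 54.3, 61.5 and 52.8% in KDM5-C70 1 to 3. The means were 69.8 ± 5.28% (SD, n = 5) and 56.2 ± 4.64% (SD, n = 3), a difference of -13.5 percentage points. The highest treated value, 61.5%, was just under the lowest DMSO value, 62.0%. Within the set of 3 libraries the difference was -10.4 points, and within the set of 5 it was -15.9 points. The libraries with KDM5-C70 also had the lower median fold enrichment given above, and the part of that in the inner share was not tested.

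The other shared regions showed a difference of like size. In them 76.7, 72.5, 85.0, 81.3 and 83.1% of called bases were inner in DMSO and 63.5, 71.2 and 66.9% with KDM5-C70, a difference of -12.5 points. Broad regions had the lower inner share in every library, by 9.16 to 14.1 points. With the regions chosen on 4 DMSO libraries, on the mean over 8 and on KDM5-C70, the difference was -14.2, -14.8 and -16.6 points. Inner share uses called bases as its denominator and is thus not free of the choice. No choice turned its direction, but each was drawn from the shared regions, over all of which the difference was -12.5 points. With each library centred on its median over all shared regions, the median change of the broad regions was -0.68 points (-0.61 with a term for the set as well), against 1.93 (1.83) over all shared regions, so most of the difference was common to the shared regions of a library.

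**Figure D2:**
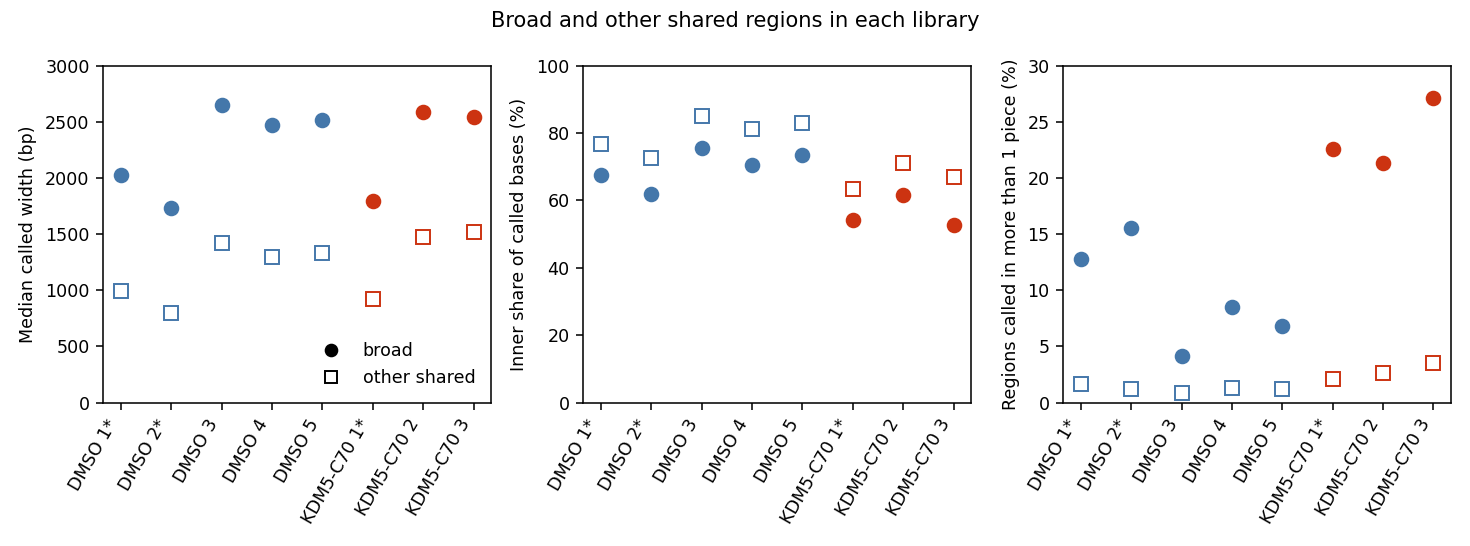
Median called width in bp (left), inner share of called bases in percent (middle) and percentage of regions called in more than 1 piece (right) for each library. Filled circles are the 1185 broad regions, open squares the 12544 other shared regions, blue DMSO and red KDM5-C70, and asterisks mark the set of 3 libraries. Widths overlapped between the groups, whereas inner share (highest 61.5% with KDM5-C70, lowest 62.0% with DMSO) and split regions did not overlap.

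The called bases that were not inner lay in 2 places. In regions with 1 called piece and an inner segment, the flanks outside the outermost inner segments held 9.8, 16.1, 6.9, 9.1 and 8.1% of the called bases in DMSO 1 to 5 and 21.3, 13.9 and 18.5% in KDM5-C70 1 to 3. The group means were 10.0 ± 3.56% (SD, n = 5) and 17.9 ± 3.74% (SD, n = 3), with KDM5-C70 2 below DMSO 2. Gaps between inner segments held 22.3, 21.7, 17.2, 19.9 and 18.1% in DMSO and 23.9, 24.1 and 27.7% with KDM5-C70, without overlap. Within the set of 3 this gap share differed by only 1.88 points, and within the set of 5 by 7.48 points. The other shared regions had similar flanks, 10.4% against 18.5%, and smaller gaps, 9.43% against 13.5%. In a library, 0, 8, 0, 0 and 0 broad regions had no inner segment in DMSO and 16, 2 and 14 with KDM5-C70. The number of inner segments per broad region was 2.25 to 2.75 in DMSO and 2.32 to 2.89 with KDM5-C70, and these ranges overlapped. It differed by -0.17 within the set of 3 and by 0.15 within the set of 5.

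Both sets of libraries, which share no library, showed the lower inner share. Over the 1185 regions the median change was -11.2 points in the set of 3 and -16.1 points in the set of 5. It was negative in both sets in 810 regions (68.4%) and positive in both in 44 (3.71%), against 57.3% and 5.70% of the other shared regions. The region-by-region agreement was weak, with Spearman's rho of 0.17 over the broad regions and 0.08 over the others, given as a description since the regions of a library share its depth.

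For single regions, limma on the inner share of all 13729 shared regions called 0 broad regions higher and 0 lower (0% and 0% of the table), with 252 broad regions (21.3%) lower and 1 higher at an unadjusted p under 0.05, against 18.5% and 0.219% of the table. All 3 KDM5-C70 values were below all 5 DMSO values in 239 broad regions (20.2%), against 12.2% of the table, and above in 1, against 0.204%. Within both sets, 460 (38.8%) were lower without overlap, against 25.7% of the table, and 5 were higher, against 0.386%. With a term for the set, limma called 8 broad regions lower, a smaller share (0.675%) than the 1.21% of the table, and 0 higher (0% of the table). With that term and centring, it called 0 lower and 0 higher (0% and 0% of the table), with 59 lower and 47 higher at an unadjusted p under 0.05 and a lowest adjusted p of 0.109.

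The 5 broad regions with the smallest p had treated values well under the DMSO range. At chr16:89786721-89790078 it was 76.8, 74.4, 88.3, 76.5 and 76.2% in DMSO 1 to 5 and 34.4, 31.7 and 20.1% in KDM5-C70 1 to 3, a difference of -49.7 points (SE 8.72, limma adjusted p 0.0699, or 0.0419 with a term for the set). The called width there was 2340 ± 178 bp in DMSO (SD, n = 5) and 2323 ± 763 bp with KDM5-C70 (SD, n = 3), which overlap. chr17:73871871-73875540 had 90.2, 87.2, 91.3, 81.3 and 75.4% in DMSO and 38.5, 43.5 and 40.3% with KDM5-C70, with a limma adjusted p of 0.0699 and 0.0419 in the same 2 fits.

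At chr1:113161164-113164272 the inner share was 68.2, 93.9, 58.5, 58.5 and 77.9% in DMSO and 21.1, 8.5 and 11% with KDM5-C70, the largest difference of the 5 at -57.8 points. Each KDM5-C70 library had 1 inner segment there, and the DMSO libraries had 2 to 5. At chr3:52738636-52741561 the means were 87.9 ± 10.1% (SD, n = 5) and 40.6 ± 9.29% (SD, n = 3), and at chr17:43298459-43302558 they were 84.5 ± 7.39% and 38.4 ± 19.2%. The limma adjusted p for these 3 regions was 0.0699, 0.0699 and 0.0813, and 0.0424 for each with a term for the set. With that term and centring, the limma adjusted p of the 5 regions was 0.109 to 0.135. The other 3 regions called with that term were chr2:10260551-10264013, chr3:14987760-14990670 and chr4:184424395-184427725, which were named after their values were seen. The lone region with a higher inner share, chr4:7043857-7046642, had 69.6, 61.9, 75.7, 73.2 and 76.2% in DMSO and 96.2, 98.3 and 79.7% with KDM5-C70 (limma adjusted p 0.226). There every DMSO library called 1 piece and every KDM5-C70 library called 2, and with regions joined within 1000 bp the change was -4.82 points (limma adjusted p 0.752).

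Broad regions were more often split with KDM5-C70. They were called in more than 1 piece in 152, 184, 49, 101 and 81 cases in DMSO 1 to 5 and in 268, 253 and 322 cases in KDM5-C70 1 to 3. As shares these are 12.8, 15.5, 4.14, 8.52 and 6.84% against 22.6, 21.4 and 27.2%, with means of 9.57 ± 4.59% (SD, n = 5) and 23.7 ± 3.06% (SD, n = 3). All treated libraries lay above all DMSO libraries, with a difference of 14.1 points, which was 8.44 points within the set of 3 and 17.8 points within the set of 5. Among the other shared regions 1.26 ± 0.274% were split in DMSO and 2.75 ± 0.744% with KDM5-C70, also without overlap. A gap counts as a split only where calls of other libraries bridge it. Gaps in KDM5-C70 libraries could be bridged by 5 lists of the other group, and gaps in DMSO libraries by 3. The part of this in the difference was not tested.

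Gaps take away called bases, and the regions were chosen on called bases in DMSO, so the difference was recomputed for other choices. It was 13.8 points with the regions chosen on 4 DMSO libraries and compared with the library left out, 10.6 points when chosen on the mean over 8 and 5.66 points when chosen on KDM5-C70. In the KDM5-C70 choice 6.19 ± 2.62% of regions were split in DMSO (SD, n = 5) and 11.8 ± 2.00% with KDM5-C70 (SD, n = 3), and the groups still did not overlap. Among the regions of at least 3000 bp, 25% were split in DMSO and 51.6% with KDM5-C70 when classed on DMSO, but 21.5% and 18.9% when classed on KDM5-C70, so there the direction turned.

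Few regions were split throughout a group. Of the 1185 regions, 584 (49.3%) were split in at least 1 library, against 11.2% of the table. Only 20 (1.69%) were split in all 3 KDM5-C70 libraries and in no DMSO library, against 0.182% of the table, among them chr2:43451304-43454922, chr14:100704154-100707164 and chr4:7043857-7046642 described above. The opposite pattern was seen in 1 region, against 0.0146% of the table. This was chr2:10260551-10264013, named after its values were seen, where the called width was 1605, 1563, 2681, 2060 and 2158 bp in DMSO and 1476, 2992 and 3179 bp with KDM5-C70.

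Gaps in the KDM5-C70 libraries often lay on bases called in DMSO, which the choice on DMSO called bases favours. KDM5-C70 1 to 3 had 276, 272 and 359 gaps inside broad regions, with median lengths of 772, 704 and 721 bp. On average over the DMSO libraries, 70.9, 70.7 and 74.7% of these gap bases were called, and 28.9, 23.2 and 29.6% lay in an inner segment. The single DMSO libraries differed widely, with 36.6 to 91.7% of the gap bases of KDM5-C70 1 called. The DMSO libraries had 164, 196, 53, 107 and 88 gaps, of which 48.7, 54.4, 35.8, 31.3 and 31.9% of bases were called in the KDM5-C70 libraries. DMSO 1 and 2 had both the most gaps and the highest of these shares.

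The shares were also taken by position within the region; the choice on DMSO called bases favours DMSO here, so they are a description. The centre of a region was the midpoint between a library's first and last called base, averaged over the 8 libraries. At this centre 94.3 ± 5.33% of the broad regions were called in DMSO (SD, n = 5) and 87.0 ± 4.44% with KDM5-C70 (SD, n = 3). The centre lay in an inner segment in 63.6, 54.6, 76.7, 69.5 and 72.2% of regions in DMSO 1 to 5 and in 50.2, 58.5 and 49.2% in KDM5-C70 1 to 3, so KDM5-C70 2 lay above DMSO 2 and the groups overlapped. Within each set, the treated libraries were below the DMSO libraries at the centre at both levels. At 1000 bp from the centre the inner level was 55.2 ± 22.4% and 42.1 ± 16.2%, and at 1500 bp it was 8.91 ± 4.50% and 8.69 ± 5.07%. At 1500 bp 16.3 ± 8.71% of regions were called in DMSO and 22.7 ± 13.7% with KDM5-C70, the reverse order of the centre, with overlap.

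**Figure D3:**
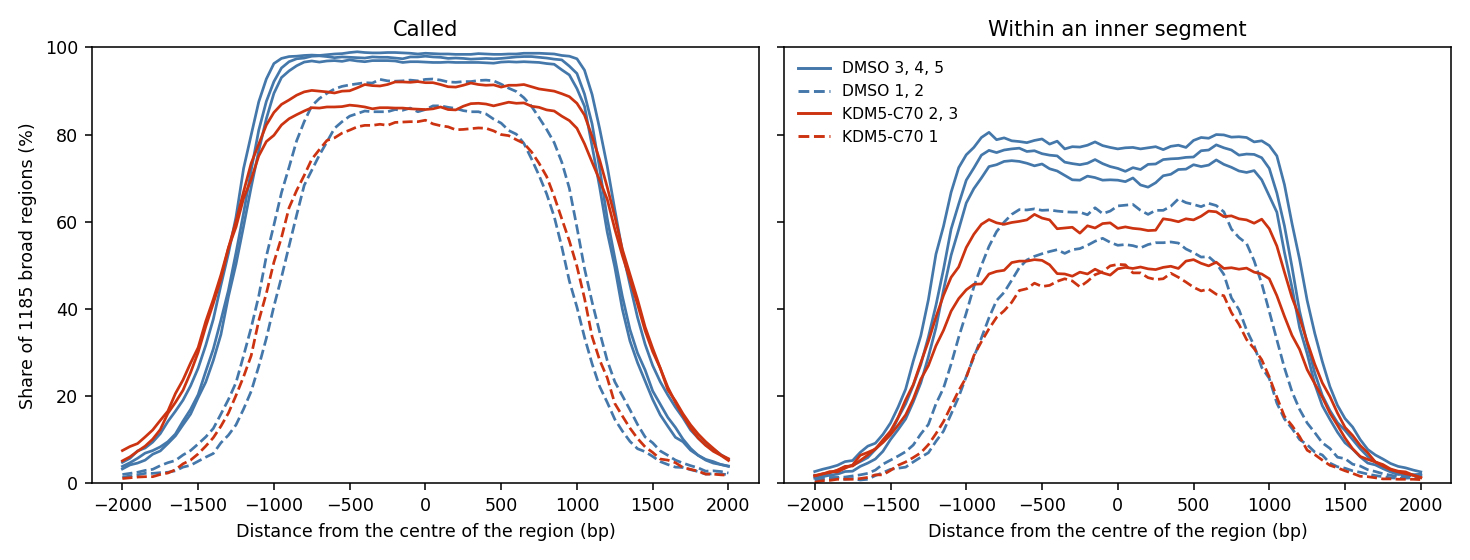
Percentage of the 1185 broad regions that were called (left) or lay in an inner segment (right) at each distance in bp from the centre, one line per library. The centre is the midpoint between a library's first and last called base, averaged over the 8 libraries. Blue is DMSO and red KDM5-C70; dashed lines are the set of 3 libraries. At the centre the treated lines lay under the DMSO lines of their own set at both levels; the set of 3 was narrower than the set of 5.

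The outer ends of the broad regions sorted the libraries by set and overlapped between the treatments. The end of a region in a library was measured as its distance outwards from the mean end over all 8 libraries. The median left end lay at -104, -212, 107, 45 and 62 bp in DMSO 1 to 5 and at -146, 116 and 130 bp in KDM5-C70 1 to 3, and the right ends at -103, -208, 115, 50 and 61 bp and at -155, 138 and 122 bp. Only libraries of the set of 3 had ends that lay inwards. The ends of the outermost inner segments, over the 1151 broad regions with such a segment in every library, lay at -65, -189, 174, 84 and 116 bp and at -180, 92 and 54 bp on the left. Both outer and inner ends overlapped between the groups. Within the set of 3 the outer ends lay 11.7 bp (left) and 1.19 bp (right) further out with KDM5-C70, and the inner ends 53.4 bp and 64.8 bp further in. Within the set of 5 the outer ends lay 51.5 bp (left) and 54.5 bp (right) further out with KDM5-C70, and the inner ends 51.7 bp and 45.8 bp further in. In the other shared regions, the outer ends lay 23 and 25.2 bp further out in the set of 3 and 71.3 and 74.4 bp in the set of 5, while the inner ends lay 18.5 and 15 bp further in in the set of 3 and 16.8 and 18.1 bp further out in the set of 5.

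In limma over the 13729 shared regions, 3 broad regions had a left end that moved inwards, against 0.0437% of the table, and 0 outwards, against 0.00728%. Of the right ends, 2 moved inwards, against 0.0146% of the table, and 0 outwards, against 0%. At an unadjusted p under 0.05, 64 left (5.40%) and 59 right ends (4.98%) lay outwards, against 5.14% and 5.18% of the table, and 39 (3.29%) and 56 (4.73%) inwards, against 1.57% and 1.75%. The fit covered every shared region whatever its width, but a region wide in DMSO has more room to lose, so nothing is read from the inward count of broad regions. Without overlap between the groups, 34 left ends lay outwards, against 2.43% of the table, and 42 inwards, against 2.08%. On the right, 20 lay outwards, against 2.32%, and 45 inwards, against 2.37%.

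With a term for the set, limma called 6 left ends outwards, against 0.758% of the table, and 4 inwards, against 0.109%. It called 8 right ends outwards, against 0.765%, and 6 inwards, against 0.117%. The fourth inward left end was at chr20:31170902-31173220, named after its values were seen. Leaving out KDM5-C70 1 raised the called ends to 59 outwards and 13 inwards on the left and to 62 and 15 on the right.

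The region at chr12:104322987-104325765 was called without its left part in the KDM5-C70 libraries. Its first called base was 104323254, 104323280, 104323080, 104323050 and 104322987 in DMSO 1 to 5 and 104324273, 104324229 and 104324281 in KDM5-C70 1 to 3. The treated ends fell close together, -1131 bp from the DMSO mean (SE 82.1, limma adjusted p 0.00367). The right end lay between 104324936 and 104325765 in DMSO and between 104325200 and 104325269 with KDM5-C70, which overlap. At chr1:37939684-37943829 the first called base was 37939823, 37939821, 37939754, 37939792 and 37939684 in DMSO and 37940630, 37940583 and 37940728 with KDM5-C70, a shift of -872 bp (SE 57.3, limma adjusted p 0.00255). Both calls held when any 1 library was left out, but not in the fit with the replicate number as a block, given below.

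The other 3 called ends were weaker. At chr6:45389151-45392414 the left end lay -982 bp further in with KDM5-C70 (limma adjusted p 0.0359), with called widths of 2752 ± 198 bp (SD, n = 5) and 1906 ± 187 bp (SD, n = 3). At chr19:12900362-12904969 the right end lay at 12904853, 12904730, 12904827, 12904969 and 12904671 in DMSO and at 12903753, 12904015 and 12903944 with KDM5-C70, a shift of -906 bp (limma adjusted p 0.0422). At chr7:92462003-92466157 the DMSO right ends were 92466151, 92466157, 92466156, 92466127 and 92466129, and those with KDM5-C70 were 92465263, 92465579 and 92465401, a shift of -730 bp (limma adjusted p 0.0422). In each of these 3 the groups did not overlap, but the calls lay near the threshold and were lost on leaving out any 1 of most libraries. The call on chromosome 6 was lost without DMSO 1, 2, 4 or 5 or KDM5-C70 2 or 3 (limma adjusted p 0.0547 to 0.177), that on chromosome 19 without any 1 DMSO library or KDM5-C70 2 or 3 (0.0529 to 0.237), and that on chromosome 7 without any 1 DMSO library or KDM5-C70 3 (0.0547 to 0.237).

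**Figure D4:**
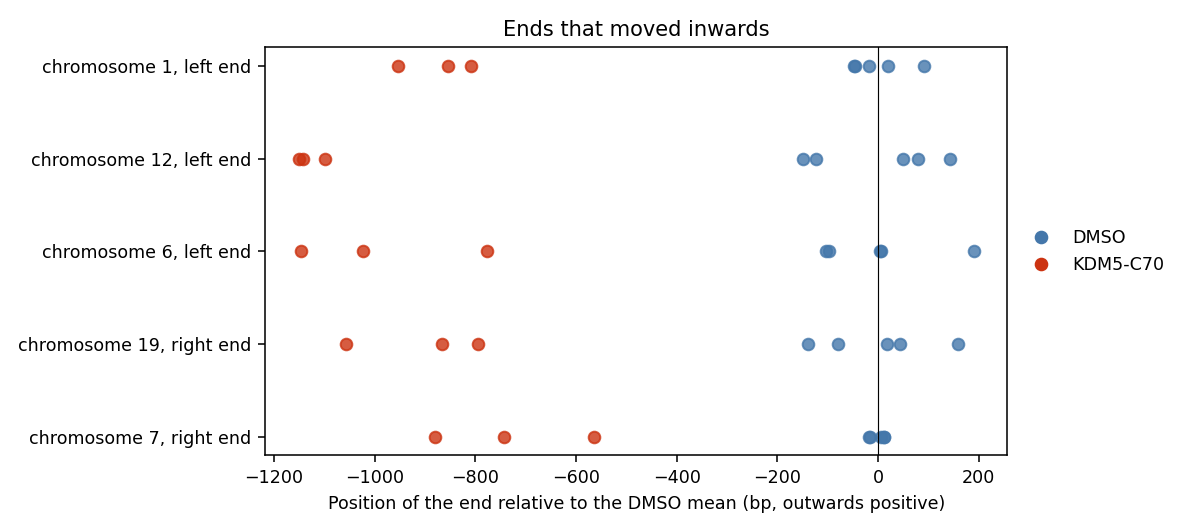
Position in bp of the called end in each library relative to the DMSO mean, outwards positive, for the 5 broad regions with an end called as moved inwards; blue points are DMSO libraries and red points KDM5-C70 libraries. All treated points lie inwards of all DMSO points, by -730 to -1131 bp on average.

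Among ends that lay without overlap but were not called, the left end of chr17:34899268-34902669 was 538 bp further out with KDM5-C70 (limma adjusted p 0.51), that of chr22:23498270-23501238 481 bp (0.316) and that of chr4:6987785-6991029 415 bp (0.268). These had limma adjusted p of 0.0148, 0.0343 and 0.0233 with a term for the set, and 0.0336, 0.0473 and 0.0754 with centring as well. On the right, chr16:89786721-89790078, named above for its inner share, lay 588 bp further out (limma adjusted p 0.437), chr6:170861243-170864381 372 bp (0.371) and chr17:4850064-4854152 336 bp (0.45). The right end of chr8:123792020-123795067 lay between 123795014 and 123795067 in DMSO and between 123794701 and 123794817 with KDM5-C70, a shift of -274 bp with a limma adjusted p of 0.332. With a term for the set, the limma adjusted p was 0.0508, 0.0448, 0.0819 and 0.0354 for these 4 right ends in turn, and 0.0692, 0.110, 0.0945 and 0.0484 with centring as well.

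The 5 widest by mean over the KDM5-C70 libraries were chr9:131936348-131941036 (3845 ± 1000.1 bp), chr8:128746633-128751377 (3768 ± 1141 bp), chr5:133860048-133863974 (3599 ± 328 bp), chr10:104401671-104406184 (3523 ± 199 bp) and chr19:2474776-2479218 (3523 ± 429.9 bp; SD, n = 3). Their DMSO means were 3106 ± 917, 3964 ± 361, 3204 ± 283, 3790 ± 610 and 3264 ± 441 bp (SD, n = 5), and the widths overlapped in each. At chr5:133860048-133863974 the inner share was 74.5, 47.6, 79.7, 62.4 and 67.5% in DMSO and 41.3, 47.8 and 44.9% with KDM5-C70, a narrow overlap through DMSO 2. In the other 4 the mean inner share was 50.4 to 64.2% in DMSO and 34.2 to 48.3% with KDM5-C70.

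Of the 3 narrowest with KDM5-C70, chr6:114175887-114180679 was called over 1727, 1156, 4793, 3212 and 2010 bp in DMSO and 159, 1396 and 523 bp with KDM5-C70, so the DMSO libraries alone spanned 1156 to 4793 bp. chr10:63660492-63664400 had 720, 573, 3345, 2477 and 3000 bp in DMSO and 746, 689 and 897 bp with KDM5-C70, which is a width near that of DMSO 1 and 2. The third was chr5:88176066-88180395, given above. Only 8 broad regions had a KDM5-C70 mean below 1000 bp.

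The regions with the most inner segments were chr6:15244978-15250293 (5 per library on average), chr1:149821526-149825239 (4.88) and chr2:60776335-60782776 (4.88). The last was the longest of the 3 as merged, at 6442 bp, and had 3 or 4 called pieces in every library. Its called width was 3350, 2356, 3863, 4617 and 3920 bp in DMSO and 2460, 2160 and 2907 bp with KDM5-C70, which overlap. Its inner share overlapped as well, with 56.4 ± 6.83% (SD, n = 5) and 49.3 ± 23.1% (SD, n = 3).

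Broad regions were found on every chromosome analysed. They made up 4.88% of the shared regions on chromosome X (22 of 451) and 12% on chromosome 21 (17 of 142), the ends of the range, with 128 regions on chromosome 1. Another merged region lay within 1000 bp of 72 broad regions (6.08%), against 2.97% of the other shared regions.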

How the data were processed

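H3K4me3 ChIP-seq was done on MM1S cells with 5 DMSO and 3 KDM5-C70 libraries. Per the labels' protocols, cells were fixed for 8 minutes in 1% formaldehyde, sonicated, and precipitated with 1 ug of antibody. The submitters' processing notes name Trim Galore 0.40, Bowtie 1.1.2, MACS2 2.1.0, HOMER 4.8 and GRCh37; the settings, and whether a control library was used, were not given in the sources used here. Deposited by the authors was 1 list of 15 columns per library, with positions and inner blocks in bp, so regions were called per library. As deposited, a region also has the authors' fold enrichment (a ratio over background), −log10 q-value, −log10 p-value and a score for display. The fold served for medians per list and the −log10 q-value for 1 stricter alternative; rho between it and called width was only 0.09 to 0.12 in a list. The lists hold no read counts, so depth is unknown and no counting interval is given.

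Regions on chromosomes 1 to 22 and X were kept, leaving out 23 to 41 per list. Blocks of 1 bp, which mark ends, were not counted as inner segments. The shortest region was 146 bp in every list. Log2 called width, inner share and both ends were fitted over 13729 regions with limma 3.58.1 (R 4.3.3), with a variance trend, a group term, 2-sided, and Benjamini-Hochberg adjustment at 0.05. Merging and fits were tested on simulated data. Per measure, 100 of 13729 regions were changed by each size. The fit with the group term recovered 32% and 98% of log2 width changes of 1 and 2, with 26 false calls. In this run, false calls were a larger share of its width calls than the 0.05 level allows. It recovered 0% and 20% of inner share changes of -20 and -40 points, with 2 false calls. For left end shifts of -500 and -1000 bp these were 50% and 98%, with 9 false calls. With set term and centring, the fit recovered 68% and 88% of the width changes, with 11 false calls. For inner share that fit recovered 0% and 12%, with 0 false calls, and for left ends 62% and 90%, with 10. Counts of 0 calls are therefore no sign that regions did not change. Other steps ran in Python 3.11.15 with pandas 2.3.3, numpy 2.4.6 and, for rank correlations and linkage, scipy 1.17.1; plots were drawn in matplotlib 3.10.9. The sets of libraries come from average linkage on the Jaccard index. Summaries over the broad regions carry no test.

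The regions, lists and measures were chosen with earlier results of these data known. Named regions are the 5 widest and 3 narrowest with KDM5-C70, the 5 (width, inner share) or 3 (each end) per direction with the smallest limma p among regions whose groups do not overlap, the 3 with the most inner segments, and 3 on each side of the limit. Alternatives were leaving out each library, other limits, choices, overlaps and joining, a −log10 q-value of at least 5, set terms, centring, no variance trend and the replicate number as a block. Gene lists were not used.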

Additional observations from a re-analysis of the deposited data

Results flagged for a closer look

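In 82 checks of whether 1 of the 5 DMSO libraries stood far from the other 4, 7 did so by Dixon's criterion at the 5% level, and chance marks about 1 group in 20. DMSO 2 had 2.25 inner segments per broad region, against 2.73 to 2.75 in the other 4. DMSO 2 also stood low in called width at chr2:43451304-43454922 (3057 bp, others 3470 to 3555 bp), at chr7:92462003-92466157 (2737 bp, others 3928 to 4127 bp) and at chr1:149821526-149825239 (1733 bp, others 3101 to 3494 bp), and in inner share at chr9:38619825-38622702 (40.8%, others 77.2 to 91.1%). DMSO 3 stood high in called width at chr5:88176066-88180395 (3590 bp, others 1929 to 2271 bp) and in inner share at chr16:89786721-89790078 (88.3%, others 74.4 to 76.8%). DMSO 2 had the shortest list of the 8 libraries, with 15323 regions, and the part of that in these values was not tested.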

How the results depend on the processing

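The lower inner share was nearly absent once libraries were centred, at -0.68 points (-0.61 with a term for the 2 sets as well), since centring removes what all shared regions of a library have in common. It was -7.33 points with lists limited to a −log10 q-value of at least 5 and -16.6 to -11.4 points under the other alternatives. That limit left 4 broad regions, with a log2 width change of -0.49, a split change of -6.67 points, right ends at -214 bp (outer) and -294 bp (inner), a width excess difference of -0.38, 1 region called narrower and 0 ends called inwards on either side. Limits of 1500, 2500 and 3000 bp gave 4076, 283 and 64 regions, split changes of 7.30, 20.2 and 26.6 points and excess differences of -0.032, -0.23 and -0.35. The limit of 1500 bp gave 5 left ends called inwards. The limit of 3000 bp gave a width change of -0.31 and 1 left and 1 right end called inwards. Choosing on KDM5-C70 gave 1919 regions, a split change of 5.66 points and 1 left and 1 right end inwards. Joining regions within 1000 bp, which closes most gaps by construction, took the split change to 2.00 points, the excess difference to -0.081 and right ends called inwards to 0. A term for the 2 sets called 8 regions with lower inner share, 6 left and 8 right ends outwards and 6 right ends inwards. With centring as well it called 12 regions narrower, 3 left and 2 right ends outwards, and 5 left and 7 right ends inwards. Without a variance trend, 5 regions were called with lower inner share and 0 right ends inwards. Joining within 1000 bp reversed the inner share change at chr4:7043857-7046642 (-4.82 points, limma adjusted p 0.752), and leaving out KDM5-C70 2, with regions merged anew, reversed the right end at chr16:89786721-89790078 (-197 bp, limma adjusted p 0.9995), which lay 675 bp outwards without KDM5-C70 1. The cause of these moves was not tested.

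Leaving out 1 library at a time gave 902 to 1678 broad regions, the extremes without DMSO 3 and without DMSO 2. The width change ran from -0.08 to 0.18, the highest without KDM5-C70 1. The inner share change ran from -16.2 to -11.4 points, the split change from 12.2 to 15.1 points and the excess difference from -0.18 to -0.069. Outer ends ran from -9.4 to 144 bp (left) and -7 to 150.2 bp (right), and inner ends from -89.8 to 54 bp and -91.3 to 59.4 bp. Calls ran from 0 to 3 for lower inner share, 2 to 13 for left ends inwards, 0 to 59 outwards, 0 to 15 for right ends inwards and 0 to 62 outwards, each highest without KDM5-C70 1.

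Same-numbered libraries were correlated at 0.37, -0.31 and 0.32 in their deviations for numbers 1, 2 and 3. The libraries numbered 1 lay in the same set, as did those numbered 3, but those numbered 2 did not. These values therefore cannot tell whether the numbers pair the libraries. Only numbers 1, 2 and 3 occur in both groups, so the DMSO libraries with other numbers have no treated partner. The fit with the replicate block therefore compared the groups over fewer libraries than the fit with the group term alone. It called 8 broad regions narrower, and 0 left and 0 right ends inwards. It took the 5 called ends to limma adjusted p of 0.646 to 0.675. Whether the block or the smaller number of libraries took away these calls was not tested.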
